A study of Mus musculus with 8 samples.

Results

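C1q and other complement genes were followed in the mandibular arch of mouse embryos in which the TGF-beta receptor gene Alk5 had been inactivated in the neural crest. The 7 genes were C1qa, C1qb and C1qc, C3, the receptor genes C3ar1 and C5ar1, and the inhibitor gene Serping1. A gene was measured by the probe sets annotated to its symbol alone, and where it had several, the one brightest on average across the 8 arrays stood for it. Of the 7, 6 were measured, by 11 probe sets, among 18194 genes in all; C3 was not analysed here. The probe sets were chosen by that brightness alone, which ran from a mean log2 value of 8.41 for C1qb to 5.56 for C5ar1.

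The embryos were Wnt1-Cre;Alk5 fl/fl mutants and Alk5 fl/fl controls, 4 arrays each, all of the C57BL/6J strain at embryonic day 11.5 with sex not determined. Both groups carry the floxed Alk5 alleles, and no Cre driver is given for the controls; what Cre itself does and what loss of Alk5 does therefore cannot be told apart. Wnt1-Cre acts in the neural crest lineage, which forms most of the arch mesenchyme, whereas macrophages, blood and endothelium come from other lineages and keep the gene. RNA of the whole arch was hybridised to Affymetrix arrays, and all values are log2 expression from RMA, a scale with no true zero on which dim probe sets show compressed differences. The labels number the samples without saying that each came from a separate embryo, so p-values measure the spread between these arrays, which may be partly technical.

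Complement is a set of blood and tissue proteins that tag microbes, dying cells and cell debris for removal. C1q, built from chains A, B and C, recognises the target and starts the classical pathway through the proteases C1r and C1s; C3 is the central protein that all pathways cleave. The fragments C3a and C5a act on the receptors C3ar1 and C5ar1 of myeloid and other cells, and Serping1 encodes C1 inhibitor, which blocks C1r and C1s. Most complement proteins of the adult circulation are made by the liver, but C1q is made mainly by macrophages and related cells, those of embryonic tissues included.

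Mutant replicate 3 stood apart from the other arrays, with an SD of 2.42 over all probe sets against 2.52 to 2.56 elsewhere, so values without it are given where they matter. The arch mesenchyme markers were bright in both groups, at a mean log2 value of 10.36 to 10.62 over 12 genes in mutants and 10.45 to 10.63 in controls. Tgfbr1, the gene of Alk5, read 12.97 to 12.99 in mutants and 12.71 to 12.90 in controls; it is not known here whether its probe set lies in the deleted part, so it checks nothing, and directions below rest on the labels.

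The 3 C1q genes were each about 2.6 to 2.9 times higher in mutant arches, with no overlap between the groups. C1qb, the B chain, read 9.46, 9.37, 8.73 and 9.16 in mutants 1 to 4, against 7.77, 7.57, 7.71 and 7.51 in controls 1 to 4. Every mutant lay above every control, and mutant 3 was the lowest mutant. The log2 fold change of C1qb was 1.54 ± 0.149 (SE), or 2.91-fold (limma adjusted p = 0.00195).

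C1qc, the C chain, read 8.30, 8.27, 7.64 and 7.86 in mutants, against 6.67, 6.40, 6.42 and 6.51 in controls. The order was that of C1qb among the mutants, with replicates 1 and 2 high and 3 lowest. C1qc rose by 1.52 ± 0.149 (SE; 2.86-fold, limma adjusted p = 0.00201). C1qa, the A chain, read 8.82, 8.77, 8.45 and 8.47 in mutants, against 7.50, 6.97, 7.29 and 7.15 in controls. Mutants 1 and 2 were again the highest, and the controls spread more widely than the mutants. C1qa rose by 1.40 ± 0.131 (SE; 2.64-fold, limma adjusted p = 0.0016). Without mutant replicate 3 the 3 changes were 1.69 for C1qb, 1.64 for C1qc and 1.46 for C1qa. In RNA of a whole tissue, more cells that make a transcript and more transcript per cell cannot be told apart.

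The chains moved together. The within-array difference C1qb minus C1qc was 1.16 ± 0.0935 in mutants and 1.14 ± 0.122 in controls (log2, SD, n = 4 each), a shift of 0.03 between the groups. C1qb minus C1qa was 0.56 ± 0.186 in mutants and 0.41 ± 0.138 in controls, and C1qc minus C1qa -0.61 ± 0.146 in mutants and -0.73 ± 0.147 in controls. In all 3 pairs the groups overlapped, so no unequal change of the chains was resolved by 4 arrays a group. For C1qb minus C1qa the overlap came from mutant 3 alone, at 0.28. Mutants 1, 2 and 4 read 0.65, 0.61 and 0.69, above the controls at 0.27 to 0.60.

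**Figure D1:**
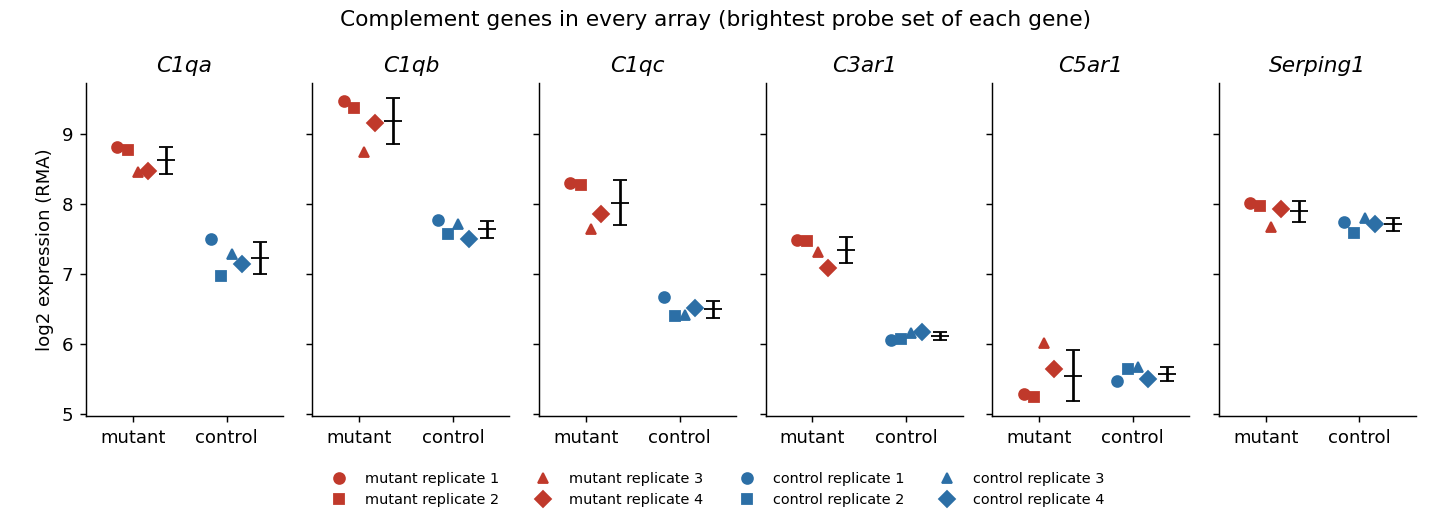
Log2 expression (vertical axis, common to all panels) of the 6 measured complement genes in each mutant (left, red) and control (right, blue) array, with the mean ± SD beside each group of 4. The mutants of C1qa, C1qb, C1qc and C3ar1 lie above all controls, and those of C5ar1 and Serping1 overlap them.

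The 3 C1q genes lie side by side on mouse chromosome 4 in the order C1qb, C1qc, C1qa with no other protein-coding gene between them (RefSeq, GRCm38.p6). The next protein-coding gene on one side, Epha8, an ephrin receptor gene, was at 0.22 ± 0.079 (log2 fold change ± SE, limma adjusted p = 0.251), and Zbtb40 beyond it at -0.16 ± 0.116 (limma adjusted p = 0.624). On the other side the neighbour Ephb2 was not analysed here, and Lactbl1 beyond it was at -0.13 ± 0.155 (limma adjusted p = 0.772). None of these 3 neighbours passed the threshold that the C1q genes passed.

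Because the C1q chains moved together, promoters are shown for C1qb and C1qc, while that of C1qa was not available here. Each promoter runs from 250 bases before to 50 after the transcript start (RefSeq, GRCm38.p6). Capitals mark the letters GAGGAA on either strand, the core recognised by the myeloid factor PU.1.
C1qb, chr4:136886151-136886450, minus strand: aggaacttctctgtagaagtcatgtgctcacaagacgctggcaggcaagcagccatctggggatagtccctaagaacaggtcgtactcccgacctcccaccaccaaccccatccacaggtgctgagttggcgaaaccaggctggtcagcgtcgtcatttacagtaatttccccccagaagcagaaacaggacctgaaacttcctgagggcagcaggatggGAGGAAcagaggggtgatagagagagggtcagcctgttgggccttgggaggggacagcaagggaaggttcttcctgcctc
C1qc, chr4:136892865-136893164, minus strand: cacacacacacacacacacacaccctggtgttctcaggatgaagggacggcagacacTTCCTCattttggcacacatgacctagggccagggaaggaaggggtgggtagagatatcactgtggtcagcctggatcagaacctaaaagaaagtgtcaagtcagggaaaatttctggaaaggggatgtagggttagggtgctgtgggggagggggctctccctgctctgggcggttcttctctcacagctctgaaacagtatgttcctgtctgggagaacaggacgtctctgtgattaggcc
C1qb holds 1 match, 30 bases before the start on the strand of the gene, and C1qc holds 1, starting 193 bases before it on the opposite strand. The letters occur in 28.3% of the 32851 promoters of the table, so a match is common. CAGACA, a short SMAD-binding sequence (21% of promoters), occurs 2 times in C1qc and 0 times in C1qb, and overlaps no PU.1 match. The interferon-stimulated response element (3.44% of promoters) occurs in neither.

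Of the anaphylatoxin receptors, C3ar1 rose and C5ar1 did not pass. C3ar1, the C3a receptor, read 7.49, 7.47, 7.32 and 7.09 in mutants, against 6.06, 6.07, 6.15 and 6.18 in controls. The controls lay within a narrow band and all mutants above it. C3ar1 rose by 1.23 ± 0.0968 (SE; 2.34-fold, limma adjusted p = 0.000821), by 1.23 also without mutant replicate 3. The within-array difference C1qb minus C3ar1 was 1.84 ± 0.29 in mutants and 1.52 ± 0.158 in controls (SD, n = 4 each). The groups overlapped, so a larger change of C1qb was not resolved with 4 arrays a group. That overlap came from mutant 3 alone, at 1.42. The other mutants read 1.90 to 2.07, above the controls at 1.33 to 1.71. For C1qc minus C3ar1 mutant 3 read 0.32 and the other mutants 0.77 to 0.81, against 0.27 to 0.61 in controls. For C1qa minus C3ar1 the overlap did not rest on mutant 3, since the highest control, at 1.44, lay above all mutants.

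C5ar1, the C5a receptor, read 5.29, 5.25, 6.02 and 5.65 in mutants, against 5.48, 5.65, 5.68 and 5.50 in controls. Mutants 1 and 2 were below all controls and mutant 3 above them. The log2 fold change was -0.03 ± 0.159 (SE; 95% interval -0.38 to 0.33, limma adjusted p = 0.962), and -0.18 without mutant replicate 3 (adjusted p = 0.436). Its probe set was dim, at percentile 23 of the genes by brightness.

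The promoters of the receptors are shown because one gene rose and the other did not; capitals mark GAGGAA as above or TGANTCA, the AP-1 site, on either strand.
C3ar1, chr6:122856108-122856407, minus strand: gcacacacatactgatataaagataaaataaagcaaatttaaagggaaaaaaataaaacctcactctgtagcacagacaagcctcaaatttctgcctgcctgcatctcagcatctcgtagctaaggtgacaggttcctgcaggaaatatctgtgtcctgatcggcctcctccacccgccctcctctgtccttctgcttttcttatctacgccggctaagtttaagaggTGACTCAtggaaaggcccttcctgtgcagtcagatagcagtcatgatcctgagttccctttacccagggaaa
C5ar1, chr7:16259289-16259588, minus strand: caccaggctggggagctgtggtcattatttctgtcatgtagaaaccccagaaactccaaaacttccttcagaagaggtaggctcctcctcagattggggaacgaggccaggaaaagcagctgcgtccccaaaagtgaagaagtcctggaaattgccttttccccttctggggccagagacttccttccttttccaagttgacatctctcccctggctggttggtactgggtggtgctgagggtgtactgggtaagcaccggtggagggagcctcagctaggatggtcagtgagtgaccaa
C3ar1 holds 1 AP-1 match, starting 22 bases before the start (7.81% of all promoters hold one), 1 CAGACA, no GAGGAA and no interferon-stimulated response element. C5ar1 holds none of the 4 motifs.

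Serping1, the gene of C1 inhibitor, read 8.01, 7.97, 7.68 and 7.92 in mutants, against 7.74, 7.58, 7.80 and 7.72 in controls. Mutants 1, 2 and 4 lay above all controls and mutant 3 among them. The log2 fold change was 0.19 ± 0.0908 (SE; 95% interval -0.02 to 0.39, limma adjusted p = 0.426), and 0.26 without mutant replicate 3 (adjusted p = 0.0739).

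Of the 6 measured genes, 4 rose, 0 fell and 2 did not pass, where a rise is an adjusted p under 0.05 in limma over all genes; of all 18194 genes 0.835% rose and 1.31% fell, 2.14% in all. The groups did not overlap in those 4, with the mutants higher, as in 3.27% of all genes, or 10.3% with either group higher. The genes were chosen with earlier results of these arrays known, so nothing is read from these shares. The median log2 fold change of the 6 was 1.31, against -0.01 over all genes.

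The further probe sets of a gene read other stretches of its transcript. C1qb had 2, which rose by 1.68 ± 0.136 and 1.33 ± 0.137 (log2 fold change ± SE, limma adjusted p = 0.00136 and 0.00424 over all 45101 probe sets); both are of a kind whose probes may also match other transcripts. C3ar1 had 2, which rose by 1.94 ± 0.215 and 1.13 ± 0.132 (limma adjusted p = 0.00553 and 0.00686). On the first of these the mutants read 7.82, 7.47, 6.87 and 7.04 and the controls 5.58, 4.92, 5.35 and 5.56, a wider gap than on the brightest set. The other probe set of C5ar1, the dimmest of all at a mean of 4.20, was at 0.17 ± 0.126 (adjusted p = 0.751), of opposite sign to the first. In this fit 0.355% of all probe sets rose.

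**Figure D2:**
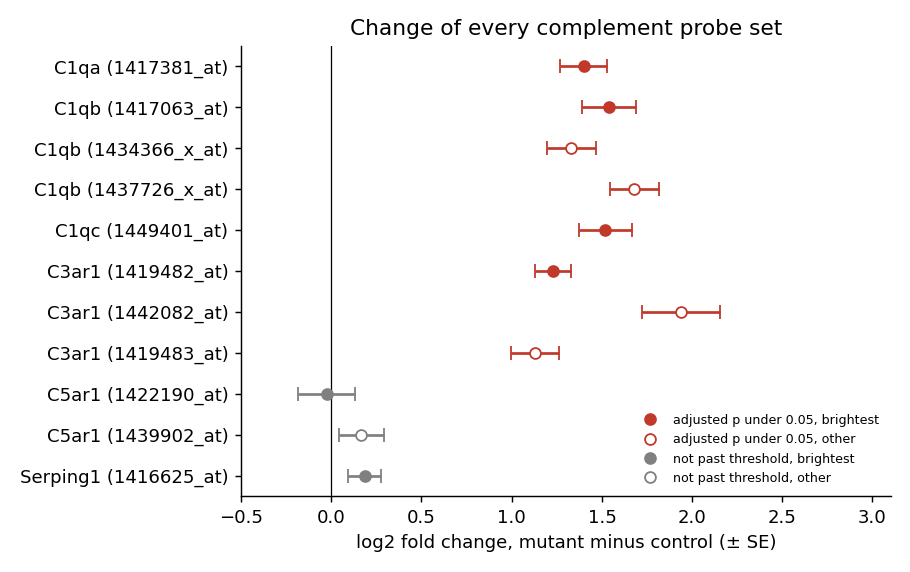
Log2 fold change, mutant minus control, of all 11 probe sets of the 6 genes (points, with SE as bars); filled points are the brightest probe set of a gene and red marks an adjusted p under 0.05 over all probe sets. All 8 probe sets of C1qa, C1qb, C1qc and C3ar1 lie between 1.13 and 1.94, and the 3 of C5ar1 and Serping1 near 0.

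Markers of macrophages, the cells known to make C1q, were higher in the same arrays. Of 23, all measured, 11 rose and 0 fell, while 12 missed the threshold. Of all genes 0.835% rose and 1.31% fell. The median log2 fold change of the 23 was 0.61, and 16 rose without mutant replicate 3. Mpeg1, which encodes a pore-forming protein of phagocytes, rose by 1.67 ± 0.13, the protease gene Ctss by 1.23 ± 0.172, Adgre1, the gene of the F4/80 antigen, by 1.21 ± 0.13, and Csf1r, the receptor gene on which macrophages depend, by 1.18 ± 0.114 (log2 fold change ± SE, limma), or 0.74 over the mean of its probe sets. The mean log2 value of the 23 ranged from 7.31 to 7.67 in mutants and from 6.85 to 6.88 in controls, without overlap. The dimmest, Cd163, lay at percentile 1.78 of brightness and was at -0.11 (limma adjusted p = 0.555), where 22 of the 23 were above 0. The myeloid factor gene Spi1, which encodes PU.1, was at 0.10 (limma adjusted p = 0.751).

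Set against the mean of these markers in the same array, the C1q genes and C3ar1 changed by more than that mean. Serping1, which did not pass by itself, was lower relative to it in mutants than in controls. The marker mean itself was higher by 0.63. C1qb exceeded the marker mean by 1.79, 1.83, 1.42 and 1.69 in mutants and by 0.90, 0.70, 0.83 and 0.66 in controls. Its change was thus 0.91 larger than that of the marker mean. For C1qc the excess change was 0.89, for C1qa 0.77 and for C3ar1 0.60, and for Serping1 it was -0.45; in these 5 genes the groups did not overlap and the two-sided exact permutation p was 0.0286, the smallest that 70 relabelings allow. C5ar1 was at -0.66 (exact permutation p = 0.0857). Serping1 by itself was at 0.19, so its -0.45 restates the higher marker mean and is not a fall of Serping1. The same holds for Serping1 against the other marker sets below, and for C5ar1, which was at -0.03 by itself. These are 6 unadjusted comparisons, and their p cannot go below 0.0286 with 4 arrays a group. The mean takes in the 12 markers that missed the threshold, while Ctss by itself rose by 1.23, as much as C3ar1. Members and markers were chosen with earlier results of these arrays known, so nothing is read from these p.

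The size of the excess depended on the markers. Against 5 of them (Csf1r, Adgre1, Ptprc, Tyrobp and Fcer1g) it was 0.58 for C1qb, 0.55 for C1qc and 0.43 for C1qa, still without overlap (exact permutation p = 0.0286 each), and 0.26 for C3ar1 (exact permutation p = 0.0571). Serping1 was then at -0.78 and C5ar1 at -0.99 (exact permutation p = 0.0286 each). Both values restate the higher markers, since Serping1 by itself was at 0.19 and C5ar1 at -0.03. Against the median of the 23 markers it was larger than against their mean, at 1.09 for C1qb, 1.06 for C1qc, 0.945 for C1qa and 0.773 for C3ar1, and Serping1 was at -0.27 (exact permutation p = 0.0286 each) and C5ar1 at -0.48 (exact permutation p = 0.171). Mpeg1, the marker with the largest change, was at 1.67, against 1.54 for C1qb.

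**Figure D3:**
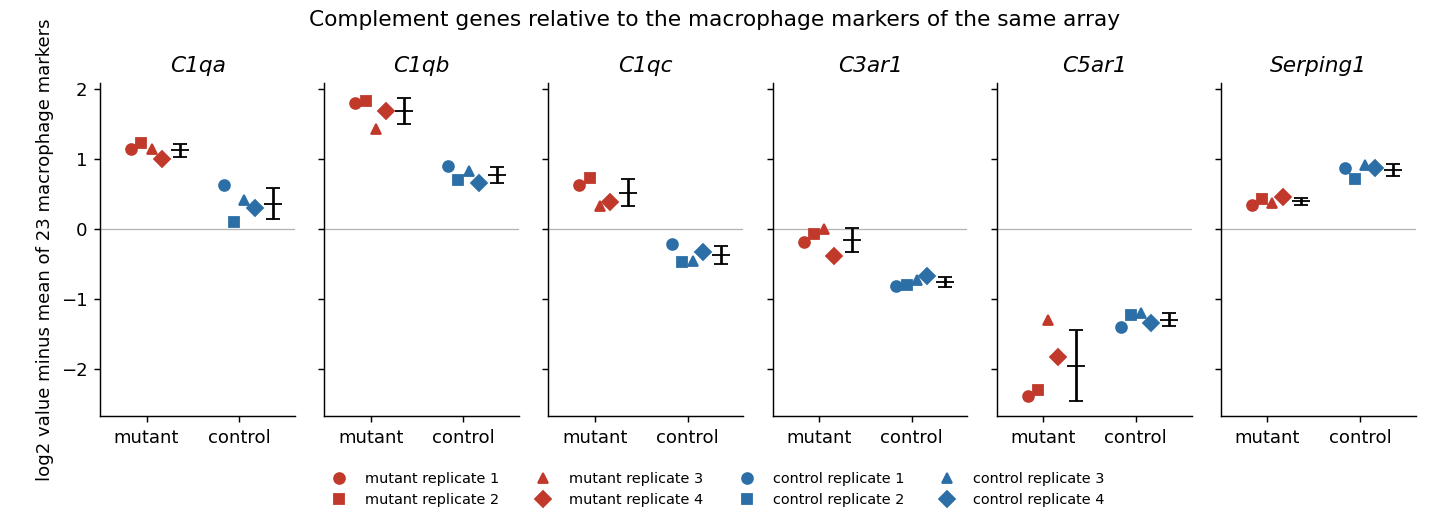
Log2 value of each complement gene minus the mean of the 23 macrophage markers of the same array (vertical axis), for mutants (left, red) and controls (right, blue), with the mean ± SD of each group of 4. The C1q genes and C3ar1 stay higher in mutants and C5ar1 overlaps. Serping1 is lower at 0.40 against 0.84, because the marker mean was higher in mutants and not because Serping1 fell.

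Genes whose pattern was most like the mean of the C1q genes over the 8 arrays were, among 9094 genes above the median level, Mpeg1 (Pearson r = 0.996), the lipid carrier gene Apoe (0.993), the lipid droplet gene Plin2 (0.991), Csf1r (0.978), Tyrobp (0.978), Ms4a6b (0.977), the lysosomal protease gene Ctsd (0.976) and Ctss (0.973). These r values are descriptions, since all 8 arrays share the group difference. Of the 8, 4 are in the macrophage list. Apoe read 10.37 ± 0.302 in mutants and 9.06 ± 0.0496 in controls (SD, n = 4 each). Plin2 correlated as closely with a log2 fold change of 0.26 ± 0.0625 (SE). C3ar1 correlated with the C1q mean at 0.975, Serping1 at 0.792 and C5ar1 at -0.277.

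Within the groups other genes ranked first. Over the deviations of the 8 arrays from their group means, the likest genes were Col8a2 (r = 0.989), Spg21 (0.983), Pcmtd1 (0.983), Rhoj (0.982) and Phf21a (0.978), with log2 fold changes between -0.31 and 0.12. On this scale the 23 macrophage markers ran from -0.889 for Spi1 to 0.958 for Aif1, with Mpeg1 at 0.93. Apoe was at 0.906 and C3ar1 at 0.512. Mutant replicate 3, the lowest mutant for all 3 C1q genes, also has the narrowest distribution, and its part in these deviations was not tested.

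No other gene of the complement pathways passed. Of 55 listed, 44 were measured, and 0 rose and 0 fell in limma, with a median log2 fold change of 0.04; 4 had an unadjusted p under 0.05, where 13.5% of all genes did, and with array weights 3 passed. Among 12 genes of classical and lectin activation the median was 0.04. The C1r gene C1ra was at -0.07 ± 0.101 and the C1s gene C1s1 at 0.14 ± 0.108 (log2 fold change ± SE). Neither of these proteases that C1q activates passed. Their probe sets were dim, at percentiles 8.2 and 24.9 of the genes by brightness, so a change could be missed.

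Colec10, a liver-type collectin gene of the lectin pathway, was the largest difference of this kind, at 7.75, 7.71, 7.17 and 7.28 in mutants against 7.08, 5.52, 5.11 and 6.05 in controls. Control 1 lay far above the other controls and just under the lowest mutant. Its log2 fold change was 1.54 ± 0.361 (SE, limma adjusted p = 0.0688), and 1.92 without control replicate 1 (adjusted p = 0.0129). It was 1.40 without control replicate 2 (limma adjusted p = 0.218) and 1.26 without control replicate 3 (adjusted p = 0.175). Colec12, a scavenger receptor collectin gene, averaged 8.85 ± 0.0869 in mutants and 8.38 ± 0.246 in controls (SD, n = 4 each). Its limma adjusted p was 0.084, with 0.0287 without control replicate 1 and 0.249 without control replicate 2.

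Among 8 genes of the alternative and terminal pathways (median 0.07), C8g, a chain of the membrane attack complex, was at 0.13 ± 0.08 and Cfp, the gene of properdin, at 0.11 ± 0.0908 (log2 fold change ± SE). Of 16 regulators (median 0.03), Clu, the gene of clusterin, which blocks membrane attack, was at -0.43 ± 0.107 (limma adjusted p = 0.0811, and 0.0207 without mutant replicate 3). The limma adjusted p of Clu was 0.248 without control replicate 2 and 0.321 when the arrays were quantile normalized again. Cd55, which speeds decay of the convertases, was at -0.29 ± 0.122 (limma adjusted p = 0.341). C1qbp, which encodes a mitochondrial protein that can bind C1q, differed by 0.10 ± 0.0593 between groups that did not overlap (limma adjusted p = 0.544).

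Of 8 other receptors (median 0.01), Itgam and Itgb2, the chains of complement receptor 3 of myeloid cells, were at -0.10 ± 0.0862 and -0.10 ± 0.105, and Vsig4, the macrophage receptor for C3b, at 0.18 ± 0.108 (log2 fold change ± SE; limma adjusted p = 0.699, 0.742 and 0.521). Megf10, an engulfment receptor gene known to bind C1q, was at -0.57 ± 0.296 (limma adjusted p = 0.462). None of the 8 passed. The probe sets of Itgam, Vsig4 and Itgb2 were dim, at percentiles 5.57, 13.1 and 25.3 of brightness, so a change could be missed.

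Of the genes that share the globular C1q domain, 2 went the other way and the others did not pass. Of 24 relatives measured, 2 fell and 0 rose, while 22 missed the threshold. Of all genes 1.31% fell and 0.835% rose. The median of the 24 was -0.14 and 8 were above 0. An unadjusted p under 0.05 in limma was found for 10, where 13.5% of all genes had one. Cbln4, a secreted cerebellin, fell by 3.13 ± 0.373 on the log2 scale, and C1qtnf7, a member of the C1q and TNF related family, by 1.32 ± 0.178 (± SE; limma adjusted p = 0.00457 and 0.00761). C1qtnf7 read 5.92, 5.91, 5.12 and 5.28 in mutants against 6.84, 6.95, 6.94 and 6.80 in controls. Both fell in the arrays in which the 3 C1q chains rose.

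**Figure D4:**
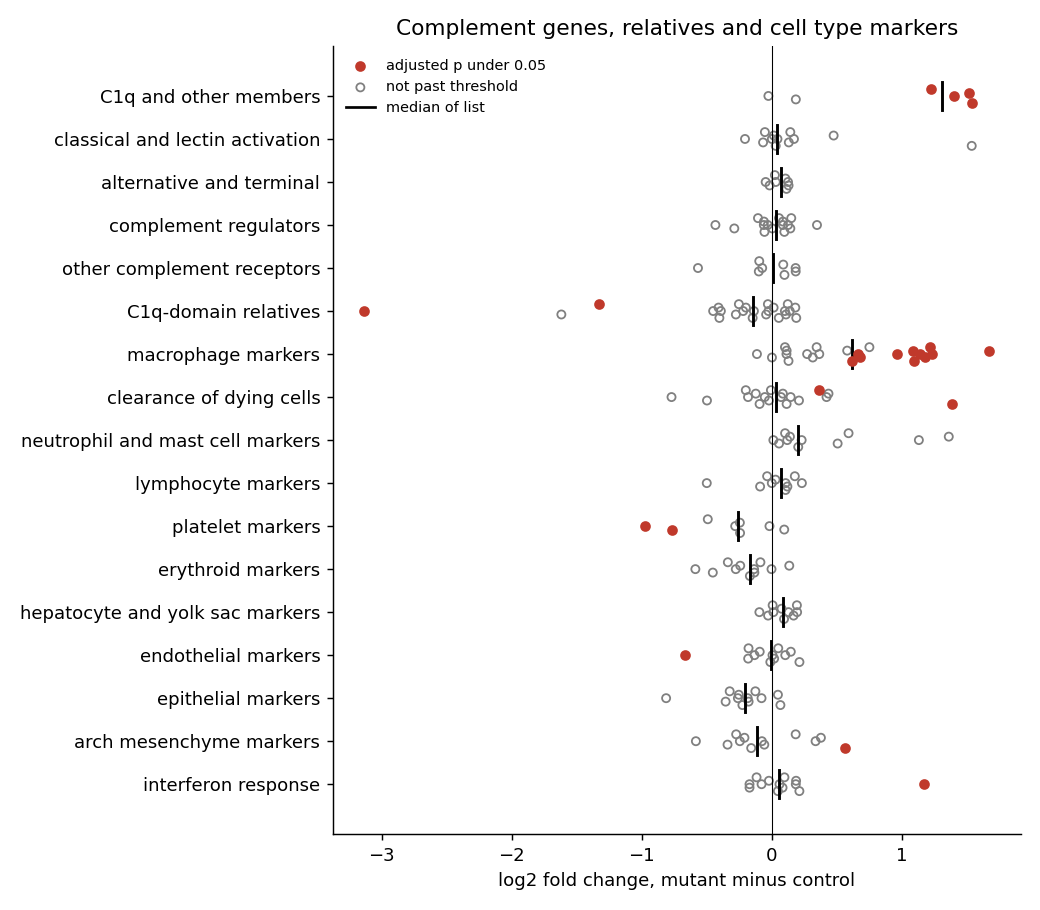
Log2 fold change, mutant minus control, of each measured gene (circles) in the complement lists, the C1q-domain relatives and lists of cell type markers and responses; red marks an adjusted p under 0.05 and black bars the list medians. Red circles to the right of 0 mark 4 of the 6 complement genes followed here, 11 of 23 macrophage markers, 2 clearance genes, 1 mesenchyme gene (Dlx2) and 1 interferon response gene, and no gene of the other complement lists is red.

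Markers of other sources of complement were measured beside these. Of 10 hepatocyte and yolk sac genes 0 passed and 0 had an unadjusted p under 0.05 in limma, with Ahsg at 0.19 and Fga at 0.09; their mean log2 value ranged from 5.55 to 5.96 in mutants and from 5.54 to 5.65 in controls. Of 11 neutrophil and mast cell genes 0 passed, 4 had an unadjusted p under 0.05 and all were above 0 (median 0.20), with S100a9 at 1.36 ± 0.518 and Ngp at 0.51 ± 0.2 (SE). Of 10 lymphocyte genes 0 passed, 1 with an unadjusted p under 0.05 (Rag1 -0.50, Il7r 0.18). These lists gave no call with the main model.

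Of 18 genes for clearing dying cells, a process that C1q aids, 2 rose: Cd36, a scavenger receptor gene, by 1.38 ± 0.17 (SE, limma adjusted p = 0.00516), and Rac2, a GTPase gene of blood cells, by 0.37 ± 0.0744 (adjusted p = 0.0407). Rac2 lost its call in 13 of 18 alternatives, with 0.155 over the mean of its probe sets, Cd36 in 0 of 17. Cd36 was at 0.927 over the mean of its probe sets (limma adjusted p = 0.0108). Its brightest probe set was dim, at percentile 16.2 of brightness, so it was not among the genes over the lower quartile. The median of the 18 was 0.03. Of 13 interferon response genes, Usp18 alone rose, by 1.17 ± 0.2 (SE, adjusted p = 0.021); it lost the call without control replicate 1 or 2 or mutant replicate 4 (adjusted p up to 0.0585).

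The remaining lists gave few calls. The platelet genes Ppbp and Pf4 fell, by 0.97 ± 0.169 and 0.77 ± 0.138 (SE), of 8 measured, and neither passed without control replicate 2 or mutant replicate 1 or 4, nor Pf4 without control 3 or mutant 2. Both also lost the call when the arrays were quantile normalized again (adjusted p = 0.0536 for Ppbp and 0.0668 for Pf4, limma). Of 11 erythroid genes 0 passed, 4 with an unadjusted p under 0.05 (Epb42 -0.59, Nfe2 -0.45). Erg fell by 0.67 among 12 endothelial genes and Dlx2 rose by 0.56 among 12 mesenchyme genes, and both lost the call without control replicate 1, 2 or 3 or mutant replicate 1 or 4, Dlx2 also without mutant 2. With median centring neither passed (limma adjusted p = 0.0554 for Erg and 0.0533 for Dlx2). Erg was at -0.33 over the mean of its probe sets (limma adjusted p = 0.0874) and also missed the threshold when adjusted over every probe set (0.0711). Dlx2 was not typical of the 12 mesenchyme genes, whose median was -0.12 with 4 above 0. Of these 12, 7 had an unadjusted p under 0.05 in limma, where 13.5% of all genes did. In 5 the groups did not overlap, as in 10.3% of all genes. Of 12 epithelial genes 0 passed, 1 with an unadjusted p under 0.05 (Krt14 -0.81, Cdh1 -0.26).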

How the data were processed

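The deposited table holds log2 expression of 45101 probe sets on 8 arrays; per the labels the authors used biotin-labelled RNA on Affymetrix arrays, and per the submitters' processing notes RMA (background correction, quantile normalization, probe summary), version not given in the sources used here. The deposited distributions were not identical between arrays. Platform annotation gave 1 symbol to 34958 probe sets, several to 932 and none to 9211; the last 2 kinds were not named. Mutants were compared with controls, 4 arrays each, with limma 3.58.1 (R 4.3.3; lmFit, eBayes, no covariate), adjusted by Benjamini-Hochberg over 18194 genes at a threshold of 0.05. Adjusted p-values of genes are from this fit. Within-array differences between a member and the macrophage markers were tested with an exact permutation of the arrays (scipy 1.17.1). Those between members were not tested and are described by the overlap of the groups.

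The members, the 16 further gene lists (232 genes, 208 measured), the motifs and the alternatives were chosen with earlier results of these data known. Named genes were all members, up to 4 called genes of a list by size or the 2 with the smallest p where none passed, the 8 and 5 genes most like C1q, and Tgfbr1; C1ra, C1s1, Itgam, Itgb2, C1qbp, Spi1, Cd163 and the neighbours of C1q were added after their values were seen. On simulated arrays of 18194 genes with 200 changed, 49.2% of changes of 0.5, 88% of 1 and 98.8% of 1.5 (log2) were recovered. The simulated noise was normal and independent between genes, with no array standing apart, so these shares may not hold for the real arrays. The number of arrays limits the precision. The alternatives were a replicate block, other probe set rules, filters, normalizations, variance models, weights and thresholds, and leaving out each array.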

Additional observations from a re-analysis of the deposited data

Results flagged for a closer look

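In 4 of 96 groups of 4 arrays examined, 1 array lay farther from the others than Dixon's 95% critical value allows, and chance gives about 1 in 20. Mutant 1 read 9.001 on the C1qb probe set that rose by 1.33, with the next mutant at 8.71. Mutant 1 also read 6.25 for Cd36, with the next at 5.59. Mutant 3 was the highest mutant for Clu, at 8.51 with the next at 8.21, and the lowest for Cdh1, at 9.93 with the next at 10.48.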

How the results depend on the processing

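C1qa, C1qb, C1qc and C3ar1 kept direction and call in every alternative that measured them (19, 19, 18 and 18), with adjusted p up to 0.0101, 0.0123, 0.0134 and 0.00774; C1qc and C3ar1 are below the median level, so 2 of the 4 calls remained over genes above it. C5ar1 (-0.21 to 0.08) and Serping1 (0.14 to 0.26, adjusted p from 0.0503) passed in none. Over all genes 152 rose and 238 fell; with other settings 92 rose (genes over the median level), 279 rose (quantile normalized again), 369 fell (trend and robust variance), 629 rose and 727 fell (array weights), 51 and 31 passed at 0.01, and 232 and 432 at 0.1. Leaving out single arrays gave 60 to 328 rises and 40 to 357 falls, 4 members throughout, 8 to 16 macrophage markers, and 0 to 2 rises and 0 to 1 falls of other complement genes. Rises of macrophage markers numbered 7 over the median level and 6 at 0.01. Among other complement genes, Clu (1 gene) fell with the mean of all probe sets (-0.69), median centring and array weights. Colec10 and Colec12 (2) rose with array weights, and all 3 passed at 0.1. Across the alternatives their limma adjusted p reached 0.218 for Colec10, 0.249 for Colec12 and 0.321 for Clu. Against the marker mean, leaving out single arrays gave 0.68 to 0.856 for C1qa, 0.863 to 0.998 for C1qb, 0.817 to 0.949 for C1qc, 0.541 to 0.67 for C3ar1, -0.49 to -0.421 for Serping1 and -0.876 to -0.513 for C5ar1, where the exact p cannot pass 0.05. With 5 markers C3ar1 was at 0.261 and C5ar1 at -0.991, which for C5ar1 restates the higher markers. The replicate numbers did not pair the arrays (same-number correlations of 0.0327, 0.0019, -0.124 and 0.406); with the replicate block 113 genes rose and 180 fell, all 4 members kept their call (C1qb 1.54, adjusted p = 0.0049), and 1 other complement gene, Colec10, passed (adjusted p = 0.033), while Erg (0.0769) and Rac2 (0.119) lost their calls. The cause of these shifts was not tested.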
